A study of Homo sapiens with 2 samples.

Results

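Redox defence in L-428 cells was examined through 37 listed genes of the thioredoxin, glutathione, NRF2 and iron systems. A listed gene was used where it was the only gene symbol of a probe set, and 32 of the 37 had such a probe set, of 11963 genes on the array. When a gene had several probe sets, the one with the highest mean signal of both arrays was taken. L-428 is an established Hodgkin's lymphoma (HL) cell line. One array held RNA from cells transfected with pcDNA6.2-GW/EmGFP-miR-DUSP5, a vector from which a green fluorescent protein is made together with an artificial microRNA directed at DUSP5 (DUSP5 knock-down). The other held RNA from cells transfected with pcDNA6.2-GW/EmGFP-miR-neg, which the labels call both empty and miR-neg (vector control). Values are signal intensities of the MicroarraySuite algorithm (MAS5), scaled by the authors to a target intensity of 500 on each array.

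Thioredoxin and glutathione are the main thiol systems with which cells reduce peroxides and oxidised proteins. Thioredoxin reductase and glutathione reductase recharge them with electrons from NADPH, and peroxiredoxins and glutathione peroxidases use them to remove peroxides. NRF2 (encoded by NFE2L2) is a transcription factor that drives many of these genes and is degraded with the help of KEAP1. Iron is taken up through the transferrin receptor and stored in ferritin, since free iron feeds the formation of radicals. HL cells are known for constitutive NF-kB activity and for low levels of B cell genes.

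There was 1 array in each group, so that a p-value could not be given and differences lack a replicate check. As an error, each log2 ratio carries the standard deviation (SD) with which several probe sets of one gene scatter. This SD was 0.42 for mean signals of 200 to 500, 0.36 up to 1000, 0.30 up to 3000 and 0.27 for brighter probe sets. Probe error is included in it, but the spread between cultures is not. An effect of the knock-down and a difference between the 2 cultures cannot be told apart. The median signal over 22283 probe sets was 164 on the knock-down array and 161 on the control array. DUSP5, the targeted phosphatase, had a signal of 368 after knock-down and 628 in control cells, or 58.6% of control (log2 ratio -0.77, SD 0.42). All 6 Hodgkin line markers were above 200 on both arrays, at 317 to 9263 after knock-down and 756 to 6580 in control cells, among them TNFRSF8 (CD30). The 5 B cell markers with a value lay at 42.3 to 211 after knock-down and at 9.93 to 268 in control cells. T cell (3 genes) and monocyte (4 genes) markers were below 200 on both arrays, whereas of 2 erythroid markers HBB gave 239 after knock-down and 203 in control cells and ALAS2 gave 10.7 after knock-down and 5.46 in control cells.

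More of the redox genes were higher than lower on the knock-down array. Of the 32 genes, 29 had a mean signal of at least 200 and were treated as measured. At least 1.5-fold higher were 7 genes (GSTO1, TFRC, PRDX1, TXN, GSTP1, PRDX2 and GPX4), which is 24.1%, beside 15.6% of all 6301 measured genes. SQSTM1 was the only measured member at least 1.5-fold lower (3.45%), beside 19.0% of all measured genes. PRDX2 passed the filter only through the knock-down array, where it was high. With a signal of at least 200 required on both arrays, 6 of 27 members were higher (22.2%, beside 14.5% of 5804 genes) and 1 was lower (3.70%, beside 17.2%). When all ratios were centred on the median of all probe sets, 7 members were higher (beside 11.0% of all measured genes) and 4 were lower (beside 24.1%), namely SQSTM1, PRDX4, TXNRD1 and NFE2L2. The median log2 ratio of the 29 genes was 0.22, with 21 above 0 and 8 below, and that of all measured genes was 0.01. GSTO1, TFRC and PRDX1 were at least 2-fold higher, as were 4.38% of all measured genes. Among all measured genes, the ratios of GSTO1, TFRC and PRDX1 ranked 10, 19 and 36 from the top. The ratios of 18 members were larger than 1 SD between probe sets (13 above 0 and 5 below), and those of 7 members were larger than 2 SD. The same shares over all measured genes were not computed, so these counts do not set the members apart from other genes.

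**Figure D1:**
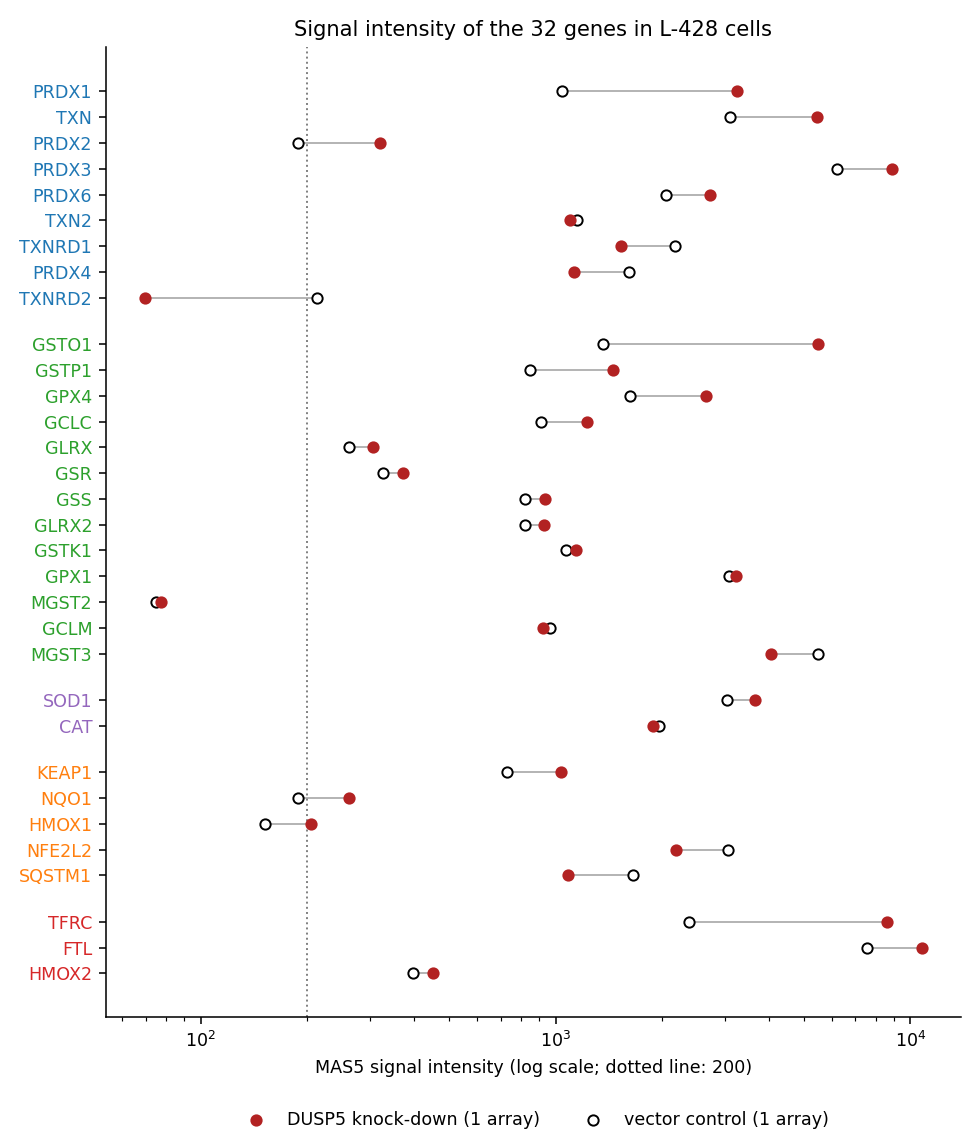
MAS5 signal intensity (log axis) of each of the 32 genes on the DUSP5 knock-down array (red points) and the vector control array (open circles), with gene names coloured by group and ordered by ratio within a group. The longest lines at high signal belong to GSTO1, TFRC and PRDX1, and TXNRD2, MGST2 and HMOX1 have mean signals under the dotted line at 200.

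Many members are abundant transcripts, and the brightest transcripts leaned towards higher ratios. At a mean signal of at least 1000, 6 of 20 members were at least 1.5-fold higher (30%) and 1 was lower (5%). Of the 2355 genes at this signal, 17.6% were higher and 17.1% were lower. The trend of the ratio with brightness was fitted by lowess over all probe sets. It was -0.06 at a mean log2 signal of 10, 0.00 at 11, 0.14 at 12 and 0.30 at 13. After subtraction of this fit the median of the 29 members was 0.24, with 7 genes higher (beside 15.5% of all measured genes) and 1 lower (beside 18.1%). SQSTM1 then lay at -0.56, short of 1.5-fold, and MGST3 at -0.61 took its place.

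**Figure D2:**
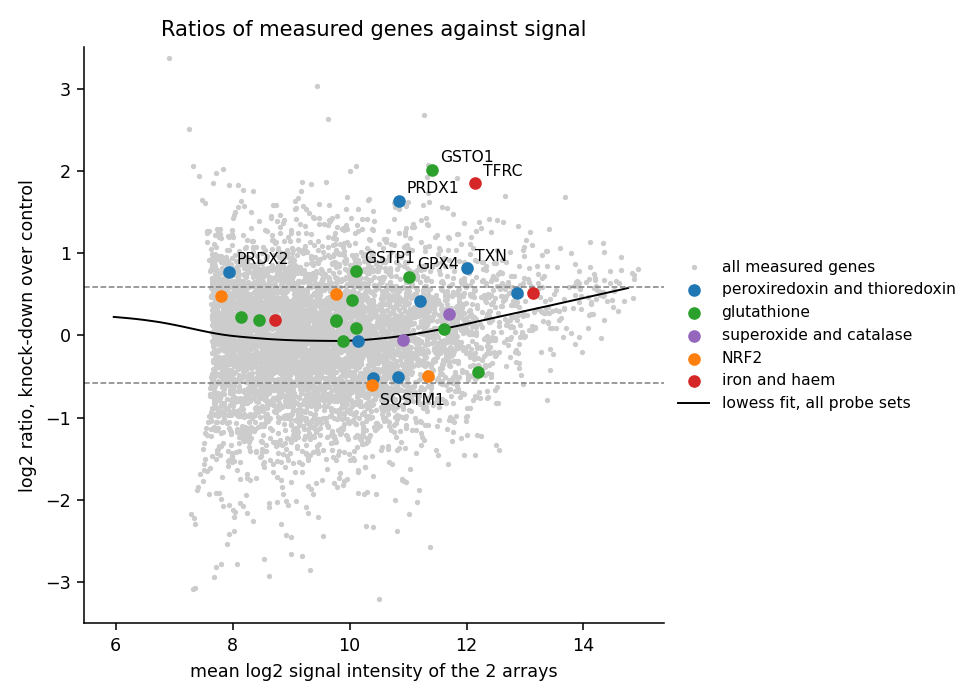
Vertical axis, log2 ratio of knock-down to control, and horizontal axis, mean log2 signal of both arrays, for all measured genes (grey) and the 29 measured members (coloured by group). The line is the lowess fit and the dashed lines mark 1.5-fold, and 2 genes lie outside the vertical axis. GSTO1, TFRC and PRDX1 stand well above the fit, whereas PRDX3 and FTL lie where the fit itself rises.

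The promoters of these genes were searched for the core of the antioxidant response element, the sequence through which NRF2 acts. The letters TGACNNNGC were sought on both strands of the 250 bases before each start site in the RefSeq promoter table (GRCh38.p14). The core can overlap the AP-1 motif TGACTCA, as it does in GSTP1. Windows were given for 28 of the 37 genes, and the motif was found in 6 of their 47 windows (12.8%), beside 11.7% of 14057 windows of genes on the array and 10.9% of all 35116 windows. The share is therefore close to that of other promoters. The 5 genes with a match included 2 of the most clearly higher members of the glutathione group, GSTO1 and GSTP1, but also GCLM, TXNRD1 and KEAP1, and all 8 matches in them are shown here so that their letters can be set beside the ratios. The motif is in capitals, and TXNRD1 has windows at different start sites. The GSTO1 and KEAP1 stretches and the second TXNRD1 stretch lie within the span of the gene, before a later start site. Both KEAP1 matches lie in the same window, so that their stretches overlap.
GSTO1, chr10:104254646-104254694, plus strand: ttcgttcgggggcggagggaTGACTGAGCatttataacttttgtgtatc
GSTO1, chr10:104254711-104254759, plus strand: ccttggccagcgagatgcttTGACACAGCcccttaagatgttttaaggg
GSTP1, chr11:67583726-67583774, plus strand: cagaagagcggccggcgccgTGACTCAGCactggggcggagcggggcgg
GCLM, chr1:93909436-93909484, minus strand: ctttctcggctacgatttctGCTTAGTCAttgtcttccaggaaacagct
TXNRD1, chr12:104215660-104215708, plus strand: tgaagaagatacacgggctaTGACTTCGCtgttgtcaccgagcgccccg
TXNRD1, chr12:104286910-104286958, plus strand: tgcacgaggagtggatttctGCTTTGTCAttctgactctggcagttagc
KEAP1, chr19:10502797-10502845, minus strand: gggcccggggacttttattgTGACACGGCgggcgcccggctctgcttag
KEAP1, chr19:10502774-10502822, minus strand: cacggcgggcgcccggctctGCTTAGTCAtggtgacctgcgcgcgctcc

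In GCLM, in the second TXNRD1 window and in the second KEAP1 stretch the match lies on the other strand, so that its reverse complement is printed. Their log2 ratios were 2.01 for GSTO1, 0.78 for GSTP1, -0.07 for GCLM, -0.50 for TXNRD1 and 0.50 for KEAP1, so that genes with the motif lay on both sides of 0.

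In the thioredoxin and peroxiredoxin group, PRDX1, TXN and PRDX2 were at least 1.5-fold higher after knock-down, and none was that much lower. Of 10 listed genes, 9 had a value and 8 were measured, with a median log2 ratio of 0.46. Of these 8, 37.5% were higher, beside 15.6% of all measured genes, and 0 were lower, beside 19.0%. Requiring a signal of at least 200 on both arrays left out PRDX2, and 2 of 7 were then higher (28.6%, beside 14.5%). Of these 7, 0 were lower (beside 17.2%), and their median was 0.42. PRDX1 (chr1:45511051-45522890), an abundant cytosolic peroxidase, had a signal of 3247 after knock-down and 1044 in control cells. This is 3.11-fold higher, a log2 ratio of 1.64 (SD 0.30) at its only probe set. TXN, the cytosolic thioredoxin that passes electrons to peroxiredoxins, had a signal of 5455 after knock-down and 3103 in control cells (1.76-fold higher, log2 ratio 0.81, SD 0.27). Its dimmer probe set gave 310.4 after knock-down and 238 in control cells, a log2 ratio of 0.38, which does not reach 1.5-fold. TXNRD1, the cytosolic thioredoxin reductase, went the other way, with 1531 after knock-down and 2173 in control cells (log2 ratio -0.50, SD 0.30). The ratios of TXN and TXNRD1 differed by 1.32 on the log2 scale (SD of the difference 0.40).

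PRDX2, another cytosolic peroxidase, gave 321 after knock-down and 188 in control cells (log2 ratio 0.77, SD 0.42). It passed the filter through the knock-down array alone. Its other 3 probe sets were dim, with mean signals under 100 where the SD exceeds 1, and their ratios were -0.63, 0.71 and 0.94, so that its direction rests on 1 probe set of the type _x_at. PRDX6, which reduces phospholipid peroxides, had 2725 after knock-down and 2044 in control cells at one probe set (log2 ratio 0.42, SD 0.30), and 1169 after knock-down and 1240.4 in control cells at the other (-0.09). Within the endoplasmic reticulum, PRDX4 had 1125 after knock-down and 1608 in control cells (log2 ratio -0.52, SD 0.30). PRDX1 and PRDX4 thus differed in ratio by 2.15 (SD of the difference 0.43), the widest gap between measured members of this group.

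The mitochondrial members showed no common direction. PRDX3, the mitochondrial peroxiredoxin, had 8862 after knock-down and 6209 in control cells (log2 ratio 0.51, SD 0.27), and 0.26 at its other probe set. After subtraction of the lowess fit its ratio was 0.24, within 1 SD. TXN2, the mitochondrial thioredoxin, had 1101 after knock-down and 1153 in control cells (log2 ratio -0.07, SD 0.30), with -0.20 at its other probe set. TXN and TXN2 differed in ratio by 0.88 (SD of the difference 0.40). TXNRD2, the mitochondrial reductase, was too dim to be read, with 69.6 after knock-down and 213 in control cells at one probe set (-1.61), and 151 after knock-down and 89.8 in control cells at the other (0.75, SD 0.75 for both). PRDX5 was not analysed here.

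**Figure D3:**
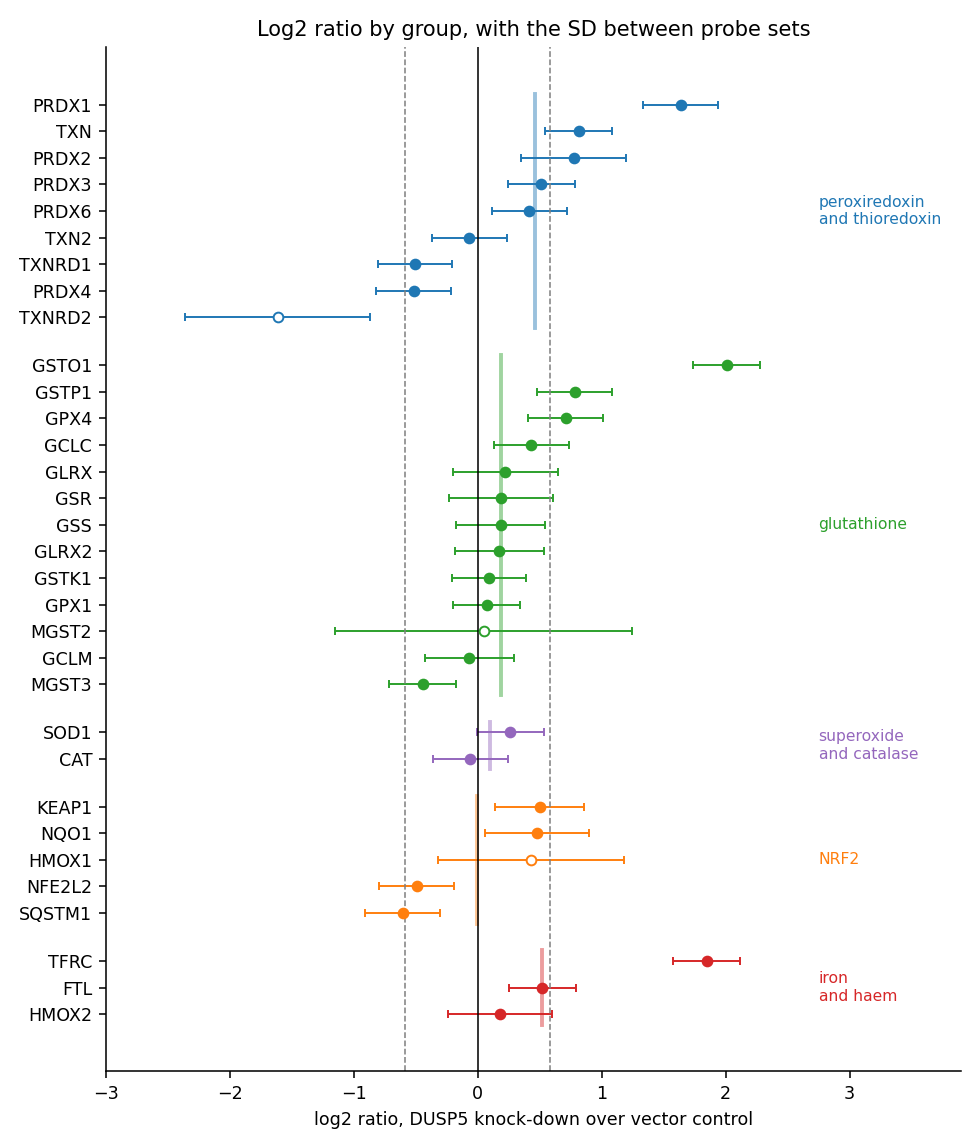
Log2 ratio of knock-down to control for the 32 genes in 5 groups. Error bars are the probe set SD at similar signal, open points have a mean signal under 200, thick vertical bars are the medians of the measured genes of a group, and dashed lines mark 1.5-fold. The medians run from -0.01 (NRF2) to 0.52 (iron and haem), and each of the larger groups holds members on both sides of 0.

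Among the glutathione genes, the transferases GSTO1 and GSTP1 and the peroxidase GPX4 were at least 1.5-fold higher after knock-down, and none was that much lower. Of 14 listed genes, 13 had a value and 12 were measured, with a median log2 ratio of 0.19. Of these 12, 25% were higher, beside 15.6% of all measured genes, and 0 were lower, beside 19.0%. GSTO1 (chr10:104254173-104267455), an omega class transferase with thioltransferase and dehydroascorbate reductase activity, had 5477 after knock-down and 1360.0 in control cells. Its 4.03-fold difference (log2 ratio 2.01, SD 0.27) was the largest of all members, at a single probe set. GSTP1, the pi class transferase that is widespread in tumor cells, had 1456 after knock-down and 847 in control cells (1.72-fold, log2 ratio 0.78, SD 0.30). GPX4, the selenoenzyme that removes lipid peroxides and protects from ferroptosis, had 2654 after knock-down and 1621 in control cells (1.64-fold, log2 ratio 0.71, SD 0.30). GPX1, the selenoenzyme that reduces hydrogen peroxide, had nearly equal signals of 3234 after knock-down and 3076 in control cells (0.07, SD 0.27). GPX4 and GPX1 differed in ratio by 0.64 (SD of the difference 0.40).

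For glutathione synthesis, the catalytic subunit of glutamate-cysteine ligase, GCLC, had 1230.3 after knock-down and 912 in control cells (log2 ratio 0.43, SD 0.30), with 0.30 at its other probe set. The modifier subunit of the same enzyme, GCLM, had 919.6 after knock-down and 964 in control cells (-0.07, SD 0.36). Their ratios differed by 0.50, close to the SD of the difference of 0.47. GSS, glutathione synthetase, was contradictory, with 932 after knock-down and 819 in control cells at one probe set (0.19, SD 0.36), and 375 after knock-down and 559.9 in control cells at the other (-0.58, SD 0.42). GSR, glutathione reductase, had 372 after knock-down and 326 in control cells (0.19, SD 0.42). The glutaredoxins GLRX (0.22) and GLRX2 (0.17), which reduce disulfides between glutathione and proteins, and the transferase GSTK1 (0.09) also lay within 1 SD of 0.

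Among the membrane-bound transferases, MGST3 had 4037 after knock-down and 5492 in control cells (log2 ratio -0.44, SD 0.27), the lowest ratio of the glutathione group. GSTO1 and MGST3 differed in ratio by 2.45 (SD of the difference 0.38). MGST2 was dim, with 77.5 after knock-down and 74.8 in control cells, and MGST1 was not analysed here.

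Superoxide and catalase genes stayed within the probe error. SOD1, the copper and zinc superoxide dismutase, had 3654 after knock-down and 3046 in control cells (log2 ratio 0.26, SD 0.27). CAT, which splits hydrogen peroxide, had 1880.2 after knock-down and 1961 in control cells (-0.06, SD 0.30), and its second probe set gave 0.13. Another CAT probe set, at 47.9 after knock-down and 5.17 in control cells, was far under the signal at which ratios can be read. SOD2 has no value, because its 4 probe sets also carried a second gene symbol.

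The NRF2 group had no common direction. All 5 listed genes had a value and 4 were measured, with a median log2 ratio of -0.01. None was at least 1.5-fold higher (beside 15.6% of all measured genes) and 1 was lower (25%, beside 19.0%). NFE2L2 itself had 2180.4 after knock-down and 3064 in control cells (log2 ratio -0.49, SD 0.30). KEAP1, the adaptor that marks NRF2 for degradation, had 1034 after knock-down and 729.7 in control cells (0.50, SD 0.36). KEAP1 and NFE2L2 differed in ratio by 0.99 (SD of the difference 0.47). SQSTM1 (p62), an autophagy receptor that binds KEAP1, had 1087 after knock-down and 1654 in control cells (1.52-fold lower, log2 ratio -0.61, SD 0.30). Its dimmer probe set was lower as well, with 54.7 after knock-down and 172 in control cells (-1.65, SD 0.75).

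NQO1, a quinone reductase often used as a readout of NRF2, had 262 after knock-down and 188 in control cells (log2 ratio 0.48, SD 0.42), and passed the filter through the knock-down array alone. Its other probe sets were dim (-0.04 and 0.86). HMOX1, the inducible haem oxygenase, gave 205 after knock-down and 152 in control cells (0.43, SD 0.75), a mean signal below the filter. Of 10 members that textbooks list as NRF2 targets (TXN, TXNRD1, PRDX1, GCLC, GCLM, GSR, NQO1, HMOX1, SQSTM1 and FTL), 9 were measured. At least 1.5-fold higher were 2 of these 9 (22.2%, beside 15.6% of all measured genes), 1 was lower (11.1%, beside 19.0%) and 6 lay between. This list was put together after the values were seen.

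In the iron and haem group, TFRC was at least 1.5-fold higher and the other 2 measured genes lay between. That is 33.3% higher, beside 15.6% of all measured genes, and 0 lower, beside 19.0%. TFRC (chr3:196049284-196082090), the receptor that imports iron-loaded transferrin and that is also abundant in dividing cells, had 8578 after knock-down and 2383 in control cells. This is 3.60-fold higher, a log2 ratio of 1.85 (SD 0.27). The other TFRC probe set gave 6845 after knock-down and 2576 in control cells (1.41), so that both were at least 2-fold higher. FTL, the ferritin light chain of the iron store, had 10798 after knock-down and 7527 in control cells at one probe set (0.52, SD 0.27), but 4988 after knock-down and 5188 in control cells at the other (-0.06). Both FTL probe sets are of the type _x_at, whose probes may also hybridise to other transcripts, and RefSeq names 20 FTL pseudogenes. TFRC and FTL differed in ratio by 1.33 (SD of the difference 0.38). HMOX2, the constitutive haem oxygenase, had 450.4 after knock-down and 397 in control cells (0.18, SD 0.42), and 0.50 at its other probe set. FTH1 and IREB2 were not analysed here.

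Where a gene had more than 1 probe set at a mean signal of at least 200, these could be compared. Of 11 such members, 7 had both probe sets on the same side of 0. TFRC (1.41 and 1.85), TXN (0.38 and 0.81) and PRDX3 (0.26 and 0.51) were above 0 at both. FTL, PRDX6, GSS and CAT had probe sets on both sides of 0, and the gap was widest for GSS (0.77). PRDX1, GSTO1, GSTP1 and GPX4 have 1 probe set each, so that no second measurement exists for them. For 13 of the 29 measured members the probe set was an _s_at or _x_at one, not unique to a transcript, TXN and PRDX2 among them. RefSeq names 7 pseudogenes of TXN and 4 of PRDX2.

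**Figure D4:**
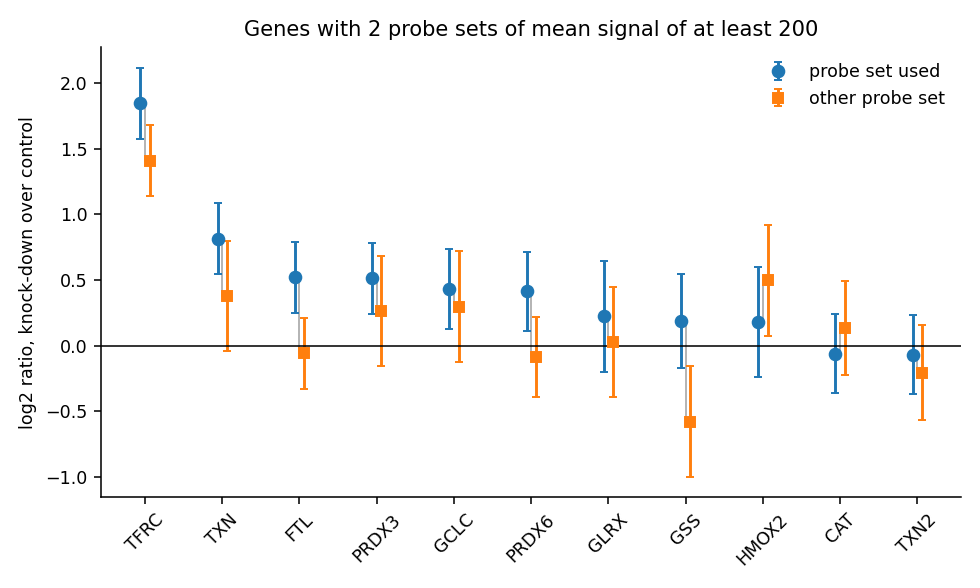
Log2 ratio (knock-down over control) at both probe sets of the 11 members with 2 probe sets of mean signal of at least 200, with the SD between probe sets as error bars. Circles are the probe sets used and squares are the others. TFRC lies above 1.4 at both, whereas the 2 probe sets of GSS lie at 0.19 and -0.58.

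Further genes of the same pathways were taken from lists that overlap in a few genes. Together they held 92 measured genes, of which 23 exceeded control by 1.5-fold or more (25%, beside 15.6%) and 20 were lower (21.7%, beside 19.0%). The median log2 ratio was 0.00. Of the genes past 1.5-fold, ALAD, EPHX1, XDH and BACH1 passed the filter through 1 array alone. Requiring 200 on both arrays left 20 of 87 higher (23.0%, beside 14.5%) and 19 lower (21.8%, beside 17.2%). A list of thioredoxin partners and thioredoxin-like proteins leaned lower. Among the members, TXN and PRDX1 were higher, but TXNRD1 (-0.50) and PRDX4 (-0.52) also lay below 0. Of 10 measured genes, 6 were at least 1.5-fold lower (60%, beside 19.0% of all measured genes). As much higher were 0 (beside 15.6%), and the median was -0.74. TXNIP, which binds and inhibits thioredoxin, had 477 after knock-down and 4419 in control cells (log2 ratio -3.21, and by its other probe sets -3.44 and -3.19). NXN, a thioredoxin-like protein, had a log2 ratio of -1.25. TMX4, also counted as lower, had -0.85 at its brightest probe set but -0.26 at another.

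Of 15 other measured glutathione genes, 5 were higher (GLRX5, ESD, GGCT, GLRX3 and GSTM1) and 3 were lower (SLC7A11, CHAC1 and SLC3A2). This is 33.3% higher, beside 15.6% of all measured genes, and 20% lower, beside 19.0%, with a median of 0.07. SLC7A11, the cystine importer that feeds glutathione synthesis, had 331 after knock-down and 1178 in control cells (-1.83, and by its other probe sets -1.58 and -0.29). CHAC1, which degrades glutathione, had 502 after knock-down and 932 in control cells (-0.89). GLRX5, a glutaredoxin of mitochondrial iron-sulphur cluster assembly, had 2140.4 after knock-down and 991 in control cells (1.11). ESD, an esterase that acts on S-formylglutathione, had a ratio of 0.92 at its brightest probe set, but 0.16 at another. GLRX3 had 0.63 but 0.20 at another probe set, and GSTM1 had 0.61 but 0.38, so that these also fell short of 1.5-fold there. Of 7 measured genes that supply NADPH, 3 were higher (42.9%, beside 15.6%) and 0 lower (beside 19.0%), with a median of 0.33. The higher genes were PGD of the pentose phosphate pathway (0.98), the isocitrate dehydrogenase IDH1 (0.92) and the NAD kinase NADK (0.71). NADK had a ratio of -0.45 at another probe set. NNT of the same list had -0.20 at its brightest probe set, but -0.75 at its other one, which is past 1.5-fold lower.

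Among partners and repressors of NRF2, 4 of 9 measured genes were lower (MAFG, BACH1, NFE2L1 and BACH2) and 1 was higher (median -0.15). This is 44.4% lower, beside 19.0% of all measured genes, and 11.1% higher, beside 15.6%. MAFG, a small MAF protein that pairs with NRF2 on DNA, had 342 after knock-down and 1297 in control cells (log2 ratio -1.92). BACH1, a repressor that competes with NRF2, had 164 after knock-down and 479 in control cells (-1.54), and passed the filter only through the control array. With 200 required on both arrays, 3 of 8 were lower (37.5%, beside 17.2% of all genes) and 1 was higher (12.5%, beside 14.5%). RBX1, a subunit of the ubiquitin ligase that KEAP1 recruits, was the 1 higher gene (0.84). Of 8 other measured NRF2 targets, 4 were higher (50%, beside 15.6%) and 1 was lower (12.5%, beside 19.0%), with a median of 0.48. The pentose phosphate enzymes TKT (1.59 by either probe set) and TALDO1 (1.25) had the highest ratios, followed by PGD (0.98) and the epoxide hydrolase EPHX1 (0.94), and SLC7A11 was the lower gene. EPHX1, at 353 after knock-down and 183 in control cells, passed the filter only through the knock-down array. With 200 required on both arrays, 3 of 7 were higher (42.9%, beside 14.5%) and 1 was lower (14.3%, beside 17.2%), with a median of 0.01.

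Of 11 other measured genes of iron transport and its control, 2 were at least 1.5-fold lower (18.2%, beside 19.0% of all measured genes). At least 1.5-fold higher were 0 (beside 15.6%), with 4 above 0 and a median of -0.12. The highest were HFE (0.55, SD 0.42), a partner of TFRC at the cell surface, and the endosomal ferrireductase STEAP3 (0.54, SD 0.42). For HFE, the other probe sets that passed the filter gave 0.11, 0.01, 0.07, -0.11 and 0.56, so that most lay near 0. SLC11A2, which carries iron out of the endosome after uptake through TFRC, had a ratio of -0.84, but -0.26 and -0.04 by the next brightest probe sets. The metal importer SLC39A14 had 2935 after knock-down and 4928 in control cells (-0.75). In iron-sulphur cluster assembly 2 of 9 measured genes were higher, GLRX5 (1.11) and LYRM4 (0.78). The lower genes were also 2, ISCA1 (-0.94, and by other probe sets -0.47 and -0.71) and the scaffold ISCU (-0.72). Each count is 22.2%, beside 15.6% higher and 19.0% lower among all measured genes. In haem metabolism 2 of 9 were higher (22.2%, beside 15.6%) and 1 was lower (11.1%, beside 19.0%). The first enzymes of haem synthesis, ALAS1 (999.9 after knock-down and 525 in control cells, 0.93) and ALAD (280.2 after knock-down and 161 in control cells, 0.80), were the higher genes, and CPOX of a later step was lower (-0.76). ALAD passed the filter only through the knock-down array. With 200 required on both arrays, 1 of 8 was higher (12.5%, beside 14.5%) and 1 was lower (12.5%, beside 17.2%).

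**Figure D5:**
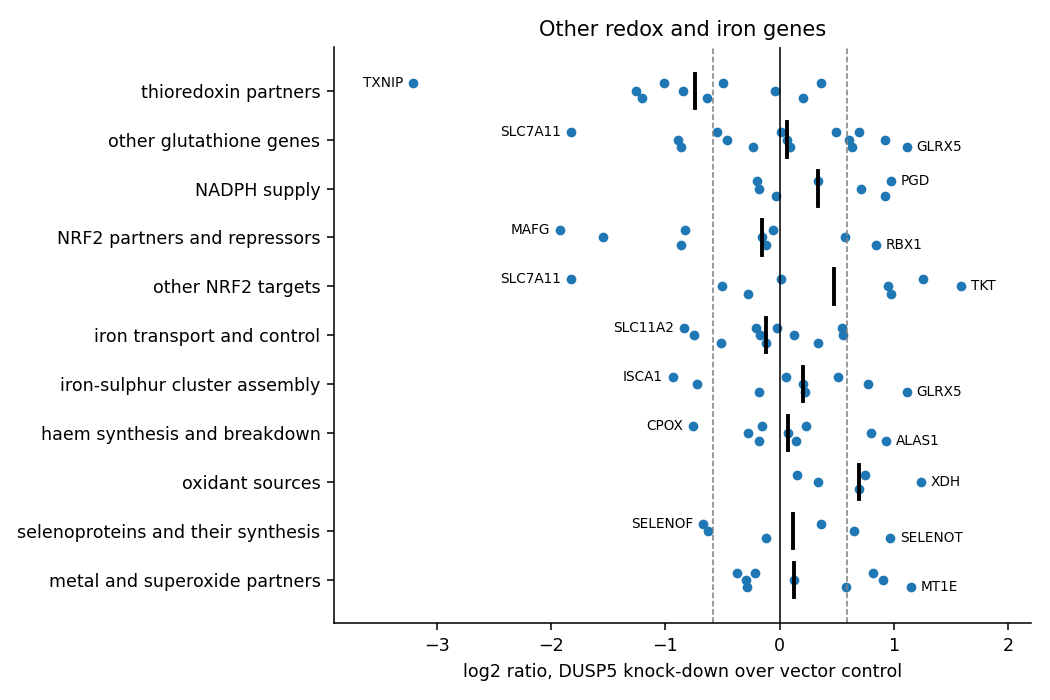
Log2 ratio (knock-down over control) of the measured genes of 11 further lists. Each point is a gene at its probe set of highest mean signal, black bars are list medians, dashed lines mark 1.5-fold, and the vertical offset has no meaning. The list labelled thioredoxin partners, which also holds thioredoxin-like proteins, has the lowest median (-0.74), with TXNIP at -3.21. TKT has the highest ratio (1.59).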

How the data were processed

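RNA of 2 L-428 cultures was hybridised to 1 Affymetrix HG_133A array each. The authors processed the Cel files in Expression Console with MAS5 and deposited linear signal intensities, scaled per array to 500. Symbols came from the 2016 platform annotation. AFFX control probe sets were left out. Of 22283 probe sets, 19065 besides controls had 1 symbol, and those with several were not named. Log2 ratios set knock-down over control without renormalizing. Genes under a mean signal of 200 counted as not measured. The probe SD was pooled over genes with several probe sets in the same band of signal. The median ratio of all probe sets was 0.12, that of measured genes 0.01. Members and lists were chosen with earlier results of these data known. Every member is named, and of each other list up to 2 genes at either end beyond 1.5-fold, besides further genes behind small counts, named after their values were seen. Alternatives were quantile normalization, centring, lowess subtraction (span 0.3), 32 added, other filters (200 on both arrays was added after seeing the data), folds and probe set choices. Steps were tested on simulated data. Promoters were from RefSeq. Python 3.11.15, numpy 2.4.6, pandas 2.3.3, statsmodels 0.14.6 and matplotlib 3.10.9 were used.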

Additional observations from a re-analysis of the deposited data

How the results depend on the processing

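PRDX1, GSTO1, TFRC, GSTP1 and GPX4 stayed at least 1.5-fold higher under all 6 settings that change ratios or probe sets. PRDX1, GSTO1, GSTP1 and GPX4 have a single probe set, of the type _at. Averaging probe sets or leaving out types therefore could not change their ratios. TFRC, used at an _at probe set, likewise could not change when types were left out. GPX4 passed only narrowly after centring (0.587, beside a cut of 0.585). TXN stayed higher under 5 settings (0.38 without _s_at and _x_at probe sets). Without those types PRDX2 turned to -0.63 and TXNRD2 to 0.75, and no member was lower (0). The medians were then 0.088 for peroxiredoxin and thioredoxin and 1.17 for iron and haem. The peroxiredoxin and thioredoxin median was 0.34 with quantile normalization, 0.34 after centring, 0.31 after lowess subtraction and 0.28 on averaging all of a gene's probe sets. The iron and haem median was 0.24 with quantile normalization, 0.23 after lowess subtraction and 1.18 at a mean signal of at least 500. Centring gave 4 lower members, a median of 0.10 for all members and 0.064 for glutathione. With no filter 2 members were lower and the NRF2 median was 0.43, against -0.49 at a mean signal of at least 500. With the mean of all probe sets, superoxide and catalase had a median of 0.68, set by the dimmest CAT probe set. With 200 required on both arrays, a setting chosen after seeing the data, the NRF2 median was -0.49. At 2-fold, 3 members were higher (beside 276 of 6301 measured genes) and 0 lower (beside 460 of 6301). Shares over all genes were not computed with no filter or without _s_at and _x_at probe sets. The counts under those settings therefore do not set the members apart from other genes. DUSP5 stayed within its SD. The cause of the other shifts was not tested. No AFFX probe set carried a member's symbol, so that setting was not run. No paired analysis was possible because each group has 1 array. Signals under 200 limit TXNRD2, MGST2 and HMOX1.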

Other observations

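The 5 measured genes linked to oxidant production were XDH and the NADPH oxidase components CYBA, NCF4, RAC1 and RAC2. Of these, 3 exceeded control by 1.5-fold or more (60%, beside 15.6% of all measured genes). None was lower (beside 19.0%), and the median log2 ratio was 0.69. XDH, the xanthine dehydrogenase of purine breakdown, had 392 after knock-down and 166 in control cells (log2 ratio 1.23, SD 0.42). It passed the filter through the knock-down array alone, and with 200 required on both arrays 2 of 4 genes were higher (50%, beside 14.5%). NCF4, a cytosolic subunit of the phagocyte NADPH oxidase, had a ratio of 0.74 but 0.24 by its other probe set, and the GTPase RAC2 of the same complex had 0.69. After lowess subtraction 2 of the 5 genes were higher, beside 15.5% of all measured genes.

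Selenoproteins and the genes that make them went both ways, with 2 of 6 measured genes higher and 2 lower. Each count is 33.3%, beside 15.6% higher and 19.0% lower among all measured genes. SELENOT, a selenoprotein of the endoplasmic reticulum, had 11332 after knock-down and 5795 in control cells (0.97, SD 0.27), whereas SELENOF of the same compartment had 1343 after knock-down and 2135 in control cells (-0.67, SD 0.30). SEPHS2, which makes the selenium donor, had a ratio of -0.63, and SEPHS1 gave 0.65, -0.57 and -0.23 by different probe sets. Of 9 measured metal-binding genes and superoxide partners, 3 were higher (33.3%, beside 15.6%) and 0 lower (beside 19.0%). The copper chaperone ATOX1 had 1311 after knock-down and 699 in control cells (0.91, SD 0.30). The metallothioneins MT1E (1.15) and MT1H (0.81) were higher, while MT2A (-0.29), MT1X (-0.28), MT1G (-0.21) and MT1F (-0.38) lay below 0. For MT1X the other probe set gave 0.19. Metallothionein genes are close copies, so that their signals are uncertain.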
